A study of Mus musculus with 112 samples.

Results

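The genes described here are 68 long noncoding RNA (lncRNA) entries whose symbols end in Rik and open with the 4 digits seen in 1700056N10Rik, 4921531C22Rik, 4930405N21Rik, 4932422M17Rik or 4933407K13Rik, numbers that RIKEN gave to full-length cDNA clones from mouse testis libraries. They were chosen by a rule on the symbol from the 1279 lncRNAs measured in embryonic stem cells (ESCs) treated with antisense morpholinos (AMO). The rule was set with earlier results of these data known. It left out 1 symbol, and the members were followed through the other tables. Of these, 31 opened like 1700056N10Rik, 24 like 4930405N21Rik and 11 like 4933407K13Rik, and 4921531C22Rik and 4932422M17Rik were alone in theirs. The symbol 1700030C10Rik stands for 2 entries, ENSMUSG00000091071.2 and ENSMUSG00000099759.1, which are kept apart below and may share reads. All 68 were listed in the degron total RNA table (1279 lncRNAs), 47 in the polyA RNA table (1246) and 19 in the table of newly made RNA (492).

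A RIKEN clone name records where a cDNA was first isolated and carries no information on function, and testis is a tissue in which many lncRNA loci are transcribed. The U1 small nuclear ribonucleoprotein (U1 snRNP) base-pairs with 5′ splice sites, takes part in splicing, keeps RNA polymerase II from ending transcripts early at internal polyA sites, and has been linked to the holding of noncoding RNA on chromatin. SNRNP70 is one of its proteins. U2 snRNP acts at the branch point, so that U2 inhibition serves as a comparison in which splicing is also blocked.

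The cells were mouse ESCs of 129/Ola background. In the AMO set they received 75 µM of a scrambled control AMO, of U1 AMO or of U2 AMO, or 50 µM of U1+U2 AMO, for 2 h. In the degron set every sample carried SNRNP70 fused to an auxin-inducible degron (AID), and the auxin IAA was given at 500 µM for 4 h or not at all (0 h). For newly made RNA (SLAM-seq), cells of the degron line had 2 h of IAA and then 3 h of IAA with 4-thiouridine (4sU), and their controls had 3 h of 4sU without IAA. The degron line is a single engineered line in the labels, with no other clone named. RNA came from whole cells or from chromatin, cytoplasm and nucleoplasm (polyA RNA: chromatin and whole cells, new RNA: the 3 fractions), in 3 libraries per group and 34 groups, except that 2 whole-cell libraries with control AMO were used. The labels do not tie replicates to separate cultures. A p-value here therefore reflects variation among the deposited libraries, part or all of which may be technical. In such bulk samples fewer cells of a type and less RNA per cell cannot be told apart.

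Of 8 listed lncRNAs of ESCs 7 were measured, and on chromatin of control AMO cells their means were 87.7 FPKM for Lncenc1, 39.4 for Platr14, 18.7 for Platr4, 5.07 for Platr27, 3.02 for Platr7, 2.69 for Panct2 and 1.2 for Platr6. Of 8 listed lncRNAs of differentiated cells 7 were measured: Halr1 (14.4), Mir124a-1hg (11.9), Sox2ot (10.3), Bvht (1.04), Miat (0.77), Hotairm1 (0.43) and Xist (0.13). The 5 listed testis lncRNAs with names of their own (Tsx, Mrhl, Dmr, Tesra and Drm) were not found under those names among the lncRNAs analysed. That does not show that they were absent from the cells. FPKM counts fragments relative to transcript length and to the mapped total, so levels of different genes can be set side by side within a table. No source used here gives the depth of these libraries. The summed values of all lncRNAs in whole cells of the AMO set varied between libraries from 14368 to 38484 FPKM.

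Start regions are shown for 6 of the 18 members that fell on chromatin both after U1 AMO and after SNRNP70 loss, as described below. RefSeq (build GRCm38.p6) held 50 of the 68 members and a promoter entry for 40, a window from 250 bases before to 50 bases after the annotated start. With 58.8% of the members covered, under the 80% needed, no property of the windows was tested over the set. Each window is printed 5′ to 3′ on the gene's own strand, with every CG dinucleotide in capitals, since CG density separates CpG island starts from others. A CG occurs in 94.6% of the 32851 promoter entries of the same length, so the count, not the presence, differs between them. Their positions are 1700017J07Rik chr2:168978019-168978318, plus strand; 1700028E10Rik chr5:151368425-151368724, plus strand; 1700122E12Rik chr8:84846897-84847196, plus strand. The others are 4933404O12Rik chr5:136918896-136919195, plus strand; 4933407K13Rik chrX:75764650-75764949, minus strand; 4933433G15Rik chr9:75409934-75410233, plus strand.
1700017J07Rik: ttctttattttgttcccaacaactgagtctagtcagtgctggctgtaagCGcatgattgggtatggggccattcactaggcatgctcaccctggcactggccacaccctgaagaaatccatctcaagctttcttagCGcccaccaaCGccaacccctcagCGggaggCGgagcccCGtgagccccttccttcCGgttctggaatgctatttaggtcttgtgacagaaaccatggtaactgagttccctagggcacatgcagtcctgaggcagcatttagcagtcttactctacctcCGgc
1700028E10Rik: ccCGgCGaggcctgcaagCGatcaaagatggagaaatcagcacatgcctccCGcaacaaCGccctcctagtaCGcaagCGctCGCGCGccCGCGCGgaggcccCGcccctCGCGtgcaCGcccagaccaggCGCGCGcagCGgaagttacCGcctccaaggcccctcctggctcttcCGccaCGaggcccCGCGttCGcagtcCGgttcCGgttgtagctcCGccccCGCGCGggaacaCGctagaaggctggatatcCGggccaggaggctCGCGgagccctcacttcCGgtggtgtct
1700122E12Rik: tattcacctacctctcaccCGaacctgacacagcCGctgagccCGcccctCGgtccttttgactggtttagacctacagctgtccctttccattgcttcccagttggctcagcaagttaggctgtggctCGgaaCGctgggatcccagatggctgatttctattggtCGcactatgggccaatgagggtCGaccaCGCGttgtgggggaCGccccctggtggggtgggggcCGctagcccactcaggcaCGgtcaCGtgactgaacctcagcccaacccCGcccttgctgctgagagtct
4933404O12Rik: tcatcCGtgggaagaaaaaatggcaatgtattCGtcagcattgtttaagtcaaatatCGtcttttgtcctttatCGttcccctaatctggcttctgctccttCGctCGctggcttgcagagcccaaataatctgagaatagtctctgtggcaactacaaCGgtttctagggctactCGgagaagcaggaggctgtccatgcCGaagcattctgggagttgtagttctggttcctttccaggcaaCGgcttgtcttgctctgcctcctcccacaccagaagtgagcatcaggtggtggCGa
4933407K13Rik: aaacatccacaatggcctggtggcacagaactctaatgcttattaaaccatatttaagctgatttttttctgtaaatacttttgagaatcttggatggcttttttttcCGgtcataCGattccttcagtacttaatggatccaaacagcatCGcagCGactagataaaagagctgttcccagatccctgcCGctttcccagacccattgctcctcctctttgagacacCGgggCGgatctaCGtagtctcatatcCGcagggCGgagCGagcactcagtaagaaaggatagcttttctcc
4933433G15Rik: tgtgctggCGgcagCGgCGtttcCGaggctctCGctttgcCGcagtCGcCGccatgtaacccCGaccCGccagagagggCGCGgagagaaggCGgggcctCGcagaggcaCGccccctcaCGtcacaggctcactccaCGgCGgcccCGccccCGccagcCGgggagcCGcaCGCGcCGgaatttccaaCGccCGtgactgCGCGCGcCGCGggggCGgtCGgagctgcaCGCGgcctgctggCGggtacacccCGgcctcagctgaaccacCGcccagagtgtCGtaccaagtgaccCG

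The 6 starts fell into unlike classes. The window of 4933433G15Rik held 41 CG, a number reached by 3.46% of all promoter entries, and that of 1700028E10Rik held 38 (4.95%). The window of 1700122E12Rik held 15 CG (34.6% of entries have at least as many), those of 4933404O12Rik and 4933407K13Rik 11 each (41.4%), and that of 1700017J07Rik 8 (48.6%). 1700122E12Rik starts 216 bases from the start of Calr, the gene of the chaperone calreticulin, on the other strand, and 4933433G15Rik starts 168 bases from Mapk6, a protein kinase gene. 1700028E10Rik lies antisense to the coding gene Stard13. 4933407K13Rik (X:75725458-75764699, minus strand) is a lncRNA of the Dxz4 macrosatellite region, known as a boundary in the folding of the inactive X chromosome. Of the 40 members with an entry, 18 started within 1000 bases of a coding gene's start on the other strand, 5 lay antisense to a coding gene and 17 lay apart. The kit kept strand, but no source used here says if it was used in counting, so reads of a member and of its partner cannot be told apart.

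Most members were scarce in these cells. On chromatin of control AMO cells the median of the members' mean levels was 1.06 FPKM, against 1.92 for all lncRNAs, with a range from 0.12 to 21.8. There were 32 members under 1 FPKM and 5 over 10, and the 3 highest held 29.4% of the summed member FPKM. The highest, 4933411E06Rik, stood at 24.7, 29.5 and 11.1 FPKM in the 3 control libraries, with the third well under the others. 4933427J07Rik stood at 21.4, 21.2 and 22.1 FPKM and 4930533N22Rik, a transcript of chromosome 7, at 15.9, 16.1 and 19.1. 4933427J07Rik lay above 4930533N22Rik in every library, while the range of 4933411E06Rik covers both. The lowest was 4933429H19Rik at 0.05, 0.19 and 0.12 FPKM, of the order of the 0.2 added before taking logarithms.

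In untreated or control cells the members were split between chromatin and the soluble fractions. Tested by limma in control AMO cells, as chromatin minus the mean of cytoplasm and nucleoplasm on the log2(FPKM + 0.2) scale, 25 of 68 members were higher on chromatin and 14 higher in the soluble fractions, against 59.3% and 9.95% of all lncRNAs tested. The members' median difference was 0.23 and that of all lncRNAs 1.10. In degron cells at 0 h, 31 of 67 were higher on chromatin and 12 lower, against 68.8% and 11.2% of all, with medians of 0.61 and 1.87. Libraries of fractions were scaled to spike-in RNA by the authors, and the difference between fractions rests on that scaling. When each library was centred on its own median, 7 members were higher and 33 lower on chromatin in control AMO cells, and 11 and 42 in degron cells. The members' centred medians were -0.875 and -1.266, and those of all lncRNAs lay near 0, by construction of the centring. Calls over all lncRNAs were not counted on that scale. The directions of members near 0 thus rest on the scaling. Of the calls on the spike-in scale, 8 of 39 and 14 of 43 changed sign when centred, and 1 and 8 of these passed in the other direction.

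1700056N10Rik was the most chromatin-bound member. It stood at 7.2, 7.77 and 9.59 FPKM on chromatin, at 0.7, 1.61 and 2.09 in cytoplasm and at 0.43, 0.51 and 0.36 in nucleoplasm of control AMO cells. Every chromatin library was above every soluble one (log2 difference 3.07, adjusted p 5.02e-07, limma). Also on chromatin were 4930509H03Rik (log2 difference 2.48), 4930533N22Rik (2.38) and 4933427J07Rik (2.35). The same 4 members led in degron cells at 0 h, with differences of 4.50, 4.00, 3.44 and 3.30.

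At the soluble end was 1700042O10Rik, which lies antisense to Ddc, the gene of aromatic L-amino acid decarboxylase. Its levels in control AMO cells were 0.5, 0.17 and 0.17 FPKM on chromatin, 12.7, 6 and 9.57 in cytoplasm and 1, 0.42 and 0.91 in nucleoplasm (log2 difference -2.68, adjusted p 1.77e-07, limma). Cytoplasm was high in all 3 libraries, and the chromatin libraries overlapped with nucleoplasm. 4930444M15Rik (-1.83), 4930481B07Rik (-1.56), 1700097N02Rik (-1.41) and 4933404O12Rik (-1.40) also favoured the soluble side. 1700020I14Rik, listed by RefSeq under Oip5os1 and known as Cyrano, a cytoplasmic lncRNA that directs the decay of the microRNA miR-7, stood at 8.38, 6.45 and 8.16 FPKM on chromatin and at 23.9, 17 and 22 in cytoplasm, with no overlap of these fractions. Its nucleoplasm mean there was 8.68 FPKM, near the chromatin level. In degron cells at 0 h Cyrano stood at 11.7, 8.62 and 10.2 FPKM on chromatin and 11.7, 9.43 and 8.18 in cytoplasm, which overlapped. Its chromatin difference in those cells did not pass the test (log2 difference -0.155, adjusted p 0.381, limma).

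**Figure D1:**
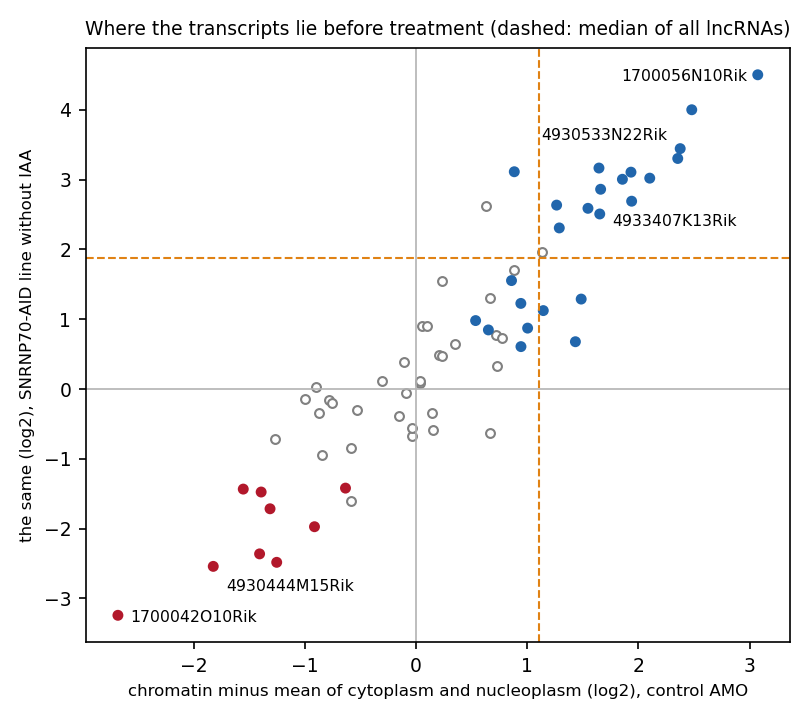
Chromatin level minus the mean of cytoplasm and nucleoplasm, as log2 differences, for each member in control AMO cells (x axis) and in degron cells at 0 h (y axis). Across the 67 members tested in both the values follow each other, with a Pearson correlation of 0.923 (0.9 over all 1276 lncRNAs), from 1700042O10Rik at the soluble end to 1700056N10Rik at the chromatin end, and the 2 sets share no library. Blue points were higher and red points lower on chromatin past the test in both, open points were not, and dashed lines are the medians of all lncRNAs.

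U1 AMO lowered many members on chromatin, in a table in which most lncRNAs were lower. Of 68 members tested 25 fell and 2 rose (limma, adjusted p under 0.05 over all lncRNAs), which is 36.8% and 2.94%, against 51.8% and 5.1% of all 1256 lncRNAs tested. The share of members that fell lies below that background. Their median log2 change was -0.56, that of all lncRNAs -0.80, and 58 members had a change under 0. Summed over the members, chromatin held 201 to 214 FPKM per library with control AMO and 111 to 126 with U1 AMO. Centred on the libraries' medians, which takes out the shift of all lncRNAs, 8 members rose and 4 fell, so that most of these directions hold for the spike-in scale only. The libraries of 29 members lay wholly below control (58.5% of all lncRNAs did) and those of 4 wholly above (6.61%).

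**Figure D2:**
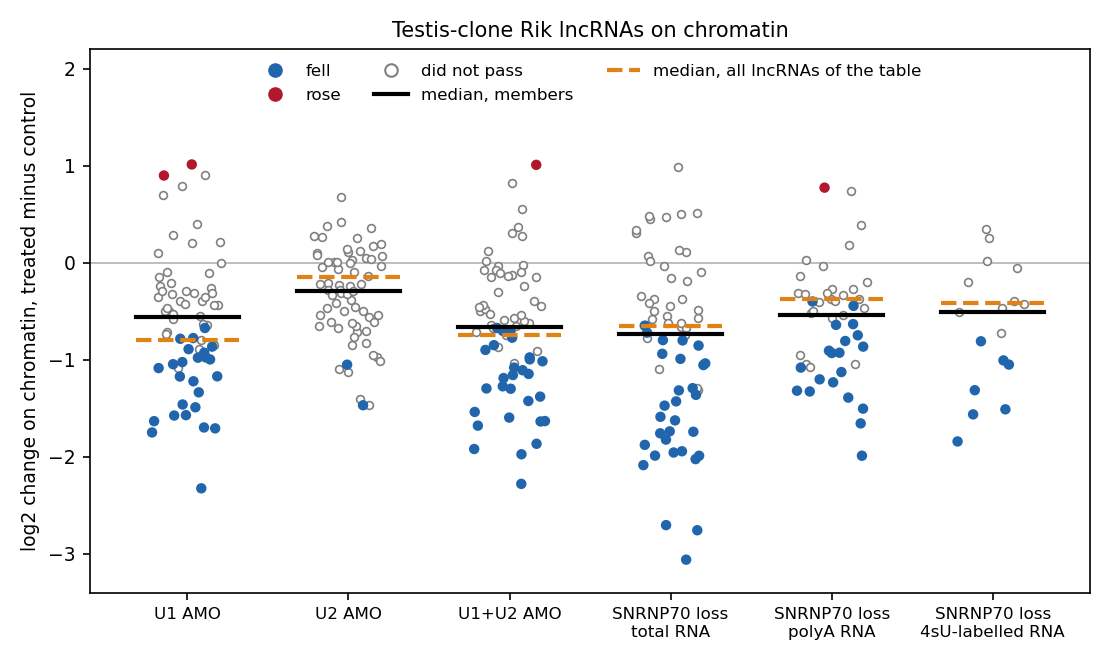
Log2 change on chromatin of each member in the comparisons with control libraries, 1 point per member, with those that fell in blue, those that rose in red, and the medians of the members (black) and of all lncRNAs (dashed) as lines. Falls outnumber rises after U1 AMO (25 against 2), U1+U2 AMO (28 against 1) and in the 3 kinds of degron RNA (30 against 0, 20 against 1 and 7 against 0), and after U2 AMO 2 members fell. Over all lncRNAs falls outnumber rises as well, by 651 to 64 after U1 AMO and 618 to 48 after U1+U2 AMO. In total, polyA and new RNA of degron cells they do so by 588 to 40, 448 to 109 and 142 to 24. Centred on the library medians the split of members is 8 rises to 4 falls after U1 AMO and 7 to 3 after U1+U2 AMO. In the 3 kinds of degron RNA it is 9 to 12, 3 to 7 and 1 to 2.

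1700056N10Rik showed the deepest fall. Its chromatin level was 7.2, 7.77 and 9.59 FPKM with control AMO and 1.04, 1.71 and 1.74 with U1 AMO, and every treated library was far under every control one (log2 change -2.32, SE 0.26, adjusted p 5.31e-05, limma). With U2 AMO it stood at 5.09, 8.25 and 7.03 and with U1+U2 AMO at 1.41, 1.91 and 2.61 FPKM, so the U2 libraries lay with the controls and those with both AMOs lay with U1. It was also lower in whole cells, where 2 control libraries had 2.36 and 2.65 FPKM and U1 AMO libraries 0.5, 0.58 and 1.01 (log2 change -1.63, SE 0.3, adjusted p 0.0055). The fall on chromatin stayed past the test when centred (-1.49, adjusted p 0.00016) and without each library in turn.

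3 other members fell on both scales: 1700086O06Rik, 1700028E10Rik and 4930566F21Rik. 1700086O06Rik went from 2.45, 2.15 and 3 FPKM with control to 0.61, 0.53 and 0.69 with U1 AMO (log2 change -1.75, SE 0.25, adjusted p 0.000164, limma). 1700028E10Rik, whose CG-dense start is printed above, went from 1.05, 0.81 and 1.26 to 0.04, 0.29 and 0.26 FPKM (log2 change -1.70, SE 0.3, adjusted p 0.000695), and 4930566F21Rik from 14.6, 14.7 and 17.4 to 5.66, 5.33 and 4.37 FPKM (log2 change -1.57, SE 0.18, adjusted p 6.47e-05). In each the treated libraries lay below all controls. In control AMO cells the nucleoplasm mean of 4930566F21Rik, 7.76 FPKM, lay below its chromatin levels. In degron cells at 0 h it was higher in the soluble fractions than on chromatin (log2 difference -1.42, adjusted p 1.31e-07, limma). In whole cells 4930566F21Rik fell after U1 AMO by 0.97 on the log2 scale, from 17.6 and 16.8 to 9.61, 8.19 and 8.32 FPKM (adjusted p 0.002, limma).

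Other falls passed the test only on the spike-in scale. 4933407K13Rik, the transcript of the Dxz4 region, went from 4.76, 5.38 and 5.41 FPKM to 1.57, 1.42 and 2.25 (log2 change -1.49, SE 0.24, adjusted p 0.000357, limma), with no overlap. 4933433G15Rik, beside Mapk6, went from 1.4, 0.64 and 0.79 to 0.37, 0.21 and 0.3 FPKM (log2 change -1.17, SE 0.32, adjusted p 0.00793). 1700017J07Rik went from 0.94, 0.82 and 1.45 to 0.11, 0.46 and 0.25 FPKM (log2 change -1.46, SE 0.52, adjusted p 0.0291), a call lost without control replicate 1 or 3 or U1 AMO replicate 1 or 3. The same control libraries and U1 AMO replicates 2 and 3 each decided the call for 1700122E12Rik, beside Calr, which went from 1.21, 0.9 and 1.19 to 0.58, 0.09 and 0.12 FPKM (log2 change -1.63, SE 0.54, adjusted p 0.0213). 4933404O12Rik, at 1.09, 0.72 and 1.09 and then 0.47, 0.39 and 0.56 FPKM (log2 change -0.78, SE 0.28, adjusted p 0.03), lost its call without control replicate 1 or 3 or U1 AMO replicate 1 or 2 and stood at 0.06 when centred. Of the 27 members called, 19 kept the call without each library in turn.

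The 2 rises were 4932422M17Rik and 4933440N22Rik. 4932422M17Rik had 0.82, 0.65 and 0.89 FPKM on chromatin with control AMO and 1.85, 1.44 and 2.11 with U1 AMO (log2 change 1.01, SE 0.23, adjusted p 0.00254, limma), every treated library being higher. It rose as well in nucleoplasm, from 0.27, 0.33 and 0.18 to 1.35, 0.59 and 1.17 FPKM (log2 change 1.38, SE 0.28, adjusted p 0.00325), and in cytoplasm, from 1.36, 1.95 and 2.23 to 4.35, 4.83 and 4.36 (log2 change 1.23, SE 0.28, adjusted p 0.019). The rise in cytoplasm did not pass without control replicate 1 or U1 AMO replicate 2 or 3. 4933440N22Rik, which starts 401 bases from Hnrnpf on the other strand and is listed as protein-coding by RefSeq, had 0.56, 1.06 and 0.44 FPKM with control and 1.58, 1.25 and 1.34 with U1 AMO (log2 change 0.90, SE 0.33, adjusted p 0.034). That call was lost without control replicate 1 or 3 or any 1 of the U1 AMO libraries. Centring raised both changes, to 1.85 and 1.74.

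Outside chromatin few members changed after U1 AMO. In cytoplasm 1 of 66 rose (4932422M17Rik) and 1 fell, against 3.95% and 3.38% of all lncRNAs, in nucleoplasm 2 of 60 rose (4932422M17Rik and 4933440N22Rik) and 0 fell, against 10.5% and 3.68%, and in whole cells 1 of 66 rose and 3 fell, against 6.24% and 7.19%. With the replicate number as a block 4 members passed in cytoplasm (1 higher, 3 lower) and 4 in nucleoplasm (2 and 2). Centred, 2 rose and 4 fell in nucleoplasm and 2 rose and 3 fell in whole cells. The fall in cytoplasm was that of 1700030C10Rik (ENSMUSG00000099759.1), from 12, 9.9 and 11.4 FPKM to 3.59, 6.12 and 5.84 (log2 change -1.10, SE 0.27, adjusted p 0.0248, limma). It passed in 1 of 6 fits that left out a library, the one without U1 AMO replicate 2. In whole cells 1700042O10Rik, the soluble transcript antisense to Ddc, went from 2.31 and 1.23 to 0.53, 0.41 and 0.65 FPKM (log2 change -1.39, adjusted p 0.014), a call lost without control replicate 1. 4930481B07Rik had the 1 rise in whole cells (0.71, adjusted p 0.0331), which was lost without any 1 of its 5 libraries. 4933440N22Rik lost its rise in nucleoplasm (1.00) without control replicate 3 or U1 AMO replicate 1. Counts this small moved with single libraries: the 2 in cytoplasm became 0 without control replicate 1 or U1 AMO replicate 3 and 1 without control replicate 3 or U1 AMO replicate 1 or 2. The 2 in nucleoplasm became 5 without replicate 2 of either group and 1 without control replicate 3, and the 4 in whole cells became 2 without control replicate 1.

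**Figure D3:**
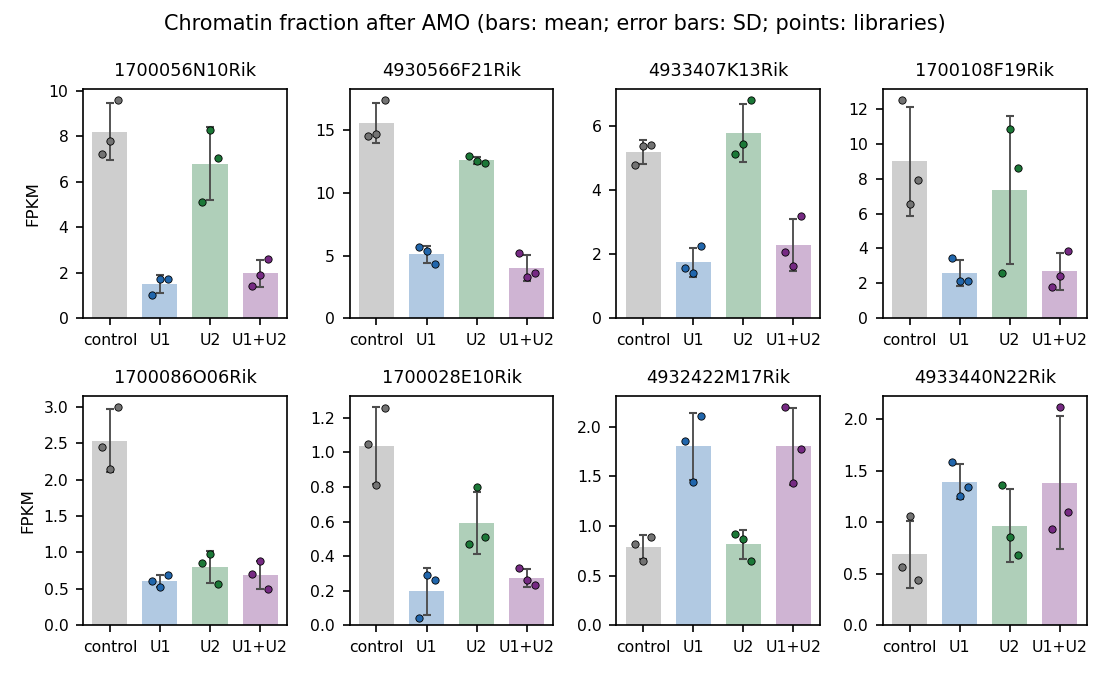
Chromatin FPKM in each library of the 4 AMO groups for 8 members, as points, with the mean as a bar and the SD as its error bar. For 1700056N10Rik the U1 and U1+U2 AMO libraries lie below all control and U2 AMO libraries, and for 4932422M17Rik they lie above them.

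After U2 AMO, compared with the same control libraries, fewer members passed the test on chromatin. Of 68 members 2 fell and 0 rose, against 5.02% and 2.79% of all lncRNAs, with medians of -0.29 for the members and -0.14 for all, and 18 members reached an unadjusted p under 0.05, 26.5% against 22.5% of all. Centred, 1 rose and 1 fell. The falls were 1700086O06Rik, at 0.85, 0.98 and 0.56 FPKM with U2 AMO (log2 change -1.47, SE 0.25, adjusted p 0.00429, limma), and 4930405N21Rik, from 2.34, 1.29 and 1.97 to 0.75, 1.21 and 0.49 FPKM (log2 change -1.05, SE 0.29, adjusted p 0.0447). Both sets of U2 libraries lay below the controls. The count fell to 1 without U2 AMO replicate 1 or control replicate 1 or 3, rose to 4 without U2 AMO replicate 2, and was 5 falls with the replicate number as a block. 4930405N21Rik lost its call without control replicate 1 or 3 or U2 AMO replicate 1 or 3.

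In nucleoplasm U2 AMO raised 6 of 60 members and lowered 0, against 19.4% and 0% of all lncRNAs. They were 4930509H03Rik (1.43), 1700108F19Rik (1.18), 1700017J07Rik (1.00), 4930481B07Rik (0.97), 4930533N22Rik (0.85) and 1700008H02Rik (0.81). 4930509H03Rik, one of the chromatin-bound members, went from 0.06, 0.08 and 0.21 to 0.47, 0.88 and 0.6 FPKM (log2 change 1.43, SE 0.41, adjusted p 0.0251, limma). All lncRNAs shifted up here, by a median of 0.45 against 0.42 for the members, and centred on the library medians 0 members rose and 2 fell. The count of rises dropped to 1 without U2 AMO replicate 1 and to 2 without control replicate 2 or 3, and none of the 6 passed without each library in turn. In cytoplasm 0 of 66 members rose and 1 fell (0.403% and 0.886% of all), 1700030C10Rik (ENSMUSG00000099759.1), and in whole cells 0 rose and 1 fell (2.24% and 1.28%), 4930566F21Rik. The first of these falls was lost without any 1 control library or U2 AMO replicate 1 or 3, and without U2 AMO replicate 2 the count was 2. The second was lost without control replicate 1 or 2 or U2 AMO replicate 1 or 3. At an unadjusted p under 0.05 there were 6 members in cytoplasm (14.3% of all lncRNAs) and 12 in whole cells (17.9% of all).

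With U1+U2 AMO, again against the same controls, 28 of 68 members fell on chromatin and 1 rose, against 49.2% and 3.82% of all lncRNAs, with medians of -0.66 and -0.75. Centred, 3 fell and 7 rose. 1700017J07Rik went to 0.22, 0 and 0 FPKM (log2 change -2.28, SE 0.52, adjusted p 0.00321, limma), 4930566F21Rik to 5.19, 3.28 and 3.62 (log2 change -1.92, SE 0.18, adjusted p 2.93e-05) and 1700097N02Rik, from 4.94, 5.8 and 4.05, to 2.02, 0.89 and 0.92 (log2 change -1.86, SE 0.43, adjusted p 0.00356). All 3 lay below their controls in every library. 4932422M17Rik, the rise, stood at 2.2, 1.43 and 1.77 FPKM (log2 change 1.01, SE 0.23, adjusted p 0.00315), above every control. Elsewhere 0 rose and 3 fell in cytoplasm (2.74% and 5.48% of all), 3 rose and 2 fell in nucleoplasm (7.88% and 6.83%), and 1 rose and 2 fell in whole cells (6.24% and 5.36%). Centred, 2 rose and 1 fell in cytoplasm and 3 rose and 2 fell in whole cells. 4930566F21Rik fell in each of these, by 1.12, 1.17 and 0.98 on the log2 scale. Its cytoplasm call was lost when centred and without control replicate 1 or 3 or U1+U2 AMO replicate 2 or 3, and its nucleoplasm call without control replicate 1 or 3 or U1+U2 AMO replicate 2. The 3 in cytoplasm became 1 without control replicate 1 or 3 or U1+U2 AMO replicate 3. The 5 in nucleoplasm became 2 without control replicate 3 or U1+U2 AMO replicate 2 and 3 without control replicate 1, and the 3 in whole cells became 1 without control replicate 1.

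Set directly against U2 AMO on chromatin, U1 AMO gave 13 lower and 3 higher members of 68, against 40% and 5.33% of all lncRNAs, and medians of -0.28 and -0.58. Centred, 4 were lower and 7 higher. 1700056N10Rik was lower (log2 difference -2.04, adjusted p 0.00013, limma), as was 4933407K13Rik, at 1.57, 1.42 and 2.25 FPKM with U1 AMO and 5.11, 5.43 and 6.8 with U2 AMO (log2 change -1.63, SE 0.24, adjusted p 0.000292). 4930509G22Rik, among the 5 members over 10 FPKM, stood at 5.42, 6.84 and 5.4 and 13.5, 17.5 and 14.1 FPKM (log2 change -1.32, SE 0.17, adjusted p 0.00013). The groups did not overlap for any of the 3. 4932422M17Rik, at 0.92, 0.87 and 0.65 FPKM with U2 AMO, was higher with U1 AMO (log2 change 0.98, SE 0.23, adjusted p 0.0049). The count of 16 dropped to 9 without U1 AMO replicate 2 or U2 AMO replicate 2 and to 10 without U1 AMO replicate 3.

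Loss of SNRNP70 for 4 h also lowered members on chromatin, in cells that share no library with the AMO set. In total RNA 30 of 66 tested fell and 0 rose, 45.5% and 0.0%, against 46.7% and 3.17% of all lncRNAs, so that the share is near the background. At an unadjusted p under 0.05 there were 35, 53.0% against 56.3% of all. The median was -0.73 for the members and -0.65 for all, and summed member FPKM went from 189 to 234 at 0 h to 114 to 134 at 4 h. Centred, 12 fell and 9 rose, and 21 of the 30 falls passed without each library in turn.

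1700017J07Rik, whose start region is printed above, went from 2.28, 2.08 and 3.74 FPKM at 0 h to 0.48, 0.17 and 0.12 at 4 h (log2 change -3.06, SE 0.4, adjusted p 0.000201, limma). The 4 h libraries were near the 0.1 FPKM added, and its size depends on that amount. 1700028E10Rik went from 1.2, 1.21 and 2.09 to 0.15, 0.12 and 0.12 FPKM (log2 change -2.76, SE 0.34, adjusted p 0.000167), and 1700113A16Rik, antisense to Mef2d, which encodes a transcription factor of muscle and neurons, from 1.45, 0.88 and 1.15 to 0.33, 0.06 and 0 (log2 change -2.70, SE 0.52, adjusted p 0.0018). For these 3 members the groups did not overlap, and the falls passed when centred too. The 4 h libraries of 1700028E10Rik, and the lower ones of 1700113A16Rik, were also near or under the amount added. The sizes of their changes depend on it as well. 4933404O12Rik, a soluble member, went from 1.36, 0.79 and 1.29 to 0.13, 0.16 and 0.35 FPKM (log2 change -2.02, SE 0.38, adjusted p 0.00162) and 1700122E12Rik from 1.33, 1.71 and 1.34 to 0.47, 0.4 and 0.11 (log2 change -1.99, SE 0.4, adjusted p 0.00224), also past the test on both scales. 1700030C10Rik (ENSMUSG00000099759.1) went from 10.9, 8.67 and 9.5 to 2.49, 3.26 and 2.06 FPKM (log2 change -1.88, SE 0.21, adjusted p 0.000108), lower in every library.

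Both perturbations lowered 18 of the 66 members tested in both, 27.3%, against 413 of 1245 lncRNAs, 33.2%. A further 9 were called after U1 AMO only, 12 after SNRNP70 loss only and 27 in neither, or 13.6%, 18.2% and 40.9%, against 22%, 14.6% and 28.1% of all lncRNAs tested in both. The shared falls are 18 of the 25 after U1 AMO and 18 of the 30 after SNRNP70 loss. Over all lncRNAs they are 413 of the 651 after U1 AMO and 413 of the 588 after SNRNP70 loss. Across the 66 members the 2 changes had a Pearson correlation of 0.288 (Spearman 0.211), and across 1245 lncRNAs 0.447, as a description of genes read in the same libraries, which are not independent. A change under 0 in both was seen in 48 members. The medians of all lncRNAs were also under 0, at -0.80 after U1 AMO and -0.65 after SNRNP70 loss. The share of all lncRNAs under 0 in both was not counted.

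**Figure D4:**
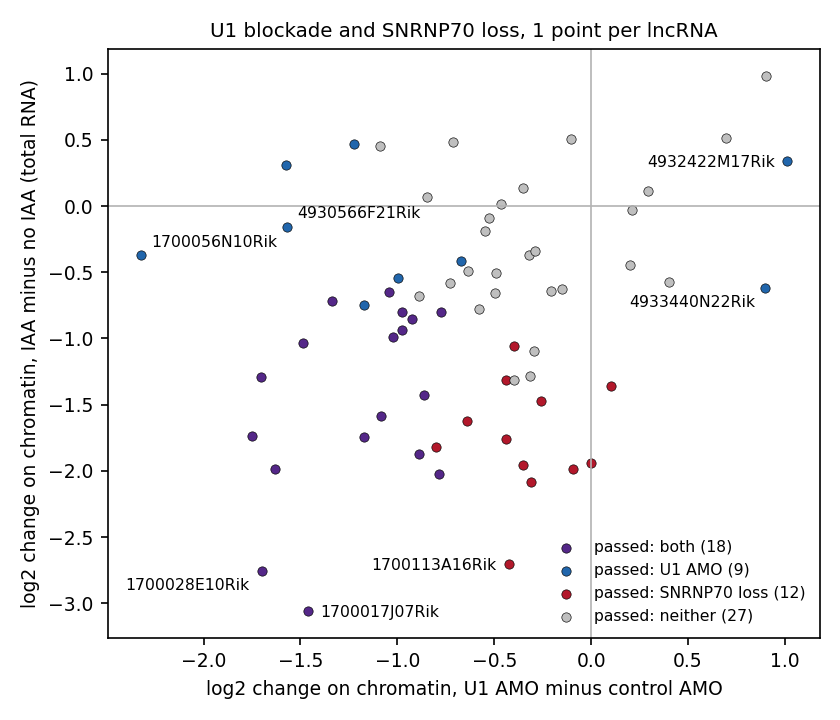
Log2 change on chromatin after U1 AMO (x axis) and after 4 h of SNRNP70 loss in total RNA (y axis) for 66 members, coloured by the calls. 18 members fell in both, while 1700056N10Rik lies far to the left at -0.37 on the y axis.

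1700056N10Rik, the deepest fall after U1 AMO, stood at 8.06, 5.92 and 5.43 FPKM at 0 h and 5.22, 4.89 and 4.61 at 4 h in the degron line (log2 change -0.37, SE 0.2, adjusted p 0.137, limma). Every 4 h library lay below every 0 h one, and the adjusted p misses the threshold. In polyA RNA on chromatin its values were 3.29, 3.5 and 2.2 and then 2.81, 3.7 and 2.6 FPKM (log2 change 0.03, SE 0.21, adjusted p 0.912). The difference between the AMO and the degron, which differ in agent, time and cells, was not tested. 4930566F21Rik likewise fell after U1 AMO and did not pass here, with 6.84, 9.01 and 8.55 and 7.92, 8.27 and 5.78 FPKM (log2 change -0.16, SE 0.2, adjusted p 0.546), as did 1700097N02Rik, with 2.23, 2.14 and 1.93 and 3.21, 2.64 and 2.11 (log2 change 0.31, SE 0.22, adjusted p 0.272). Centred, these last 2 were past the test in the other direction in the degron line, at 0.59 and 1.05.

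In polyA RNA on chromatin 20 of 47 members fell and 1 rose, against 36.8% and 8.96% of all lncRNAs, with medians of -0.54 and -0.37. Summed member FPKM went from 224 to 232 at 0 h to 131 to 153 at 4 h. 1700030C10Rik (ENSMUSG00000099759.1) went from 33, 33 and 36.6 to 8.84, 7.12 and 9.89 FPKM (log2 change -1.99, SE 0.12, adjusted p 2.33e-05, limma), and the other entry of that symbol from 12.3, 11.2 and 11.7 to 6.31, 5.63 and 6.43 (log2 change -0.93, SE 0.09, adjusted p 0.000144). Neither group pair overlapped. 1700034H15Rik, which starts 746 bases from the zinc transporter gene Slc30a1, went from 1.41, 1.77 and 2.83 to 0.38, 0.5 and 0.82 FPKM (log2 change -1.66, SE 0.33, adjusted p 0.00475). Centred, 7 fell, these 3 among them, and 3 rose. The 1 rise on the spike-in scale was 4932422M17Rik, from 0.42, 0.5 and 0.38 to 0.67, 1.13 and 0.69 FPKM (log2 change 0.77, SE 0.25, adjusted p 0.0392), higher in every library and lost without any 1 of the 0 h libraries or 4 h replicate 2. Of the 47 members, 14 fell in both total and polyA RNA on chromatin, 29.8%, against 32.1% of all lncRNAs tested in both.

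Whole-cell polyA RNA gave 4 rises and 4 falls among 47 members, against 13% and 7.05% of all lncRNAs. Centred, 2 rose and 4 fell. The rises were 4930405N21Rik, 4930512J16Rik, 4932422M17Rik and 4930526L06Rik. 4930512J16Rik went from 0.41, 0.08 and 0.09 to 0.59, 0.53 and 0.76 FPKM (log2 change 1.47, SE 0.42, adjusted p 0.0396, limma), and 4932422M17Rik from 0.58, 0.37 and 0.17 to 0.93, 0.93 and 0.99 (log2 change 1.25, SE 0.35, adjusted p 0.0381). Both are low, above their 0 h libraries at 4 h, and each passed in 1 of 6 fits that left out a library. The falls were 1700034H15Rik (-1.30), 4930480K23Rik (-1.05), 1700030C10Rik (ENSMUSG00000099759.1, -0.69) and 4933407K13Rik (-0.65). 4930405N21Rik and 1700030C10Rik (ENSMUSG00000099759.1) kept their calls without each library in turn. The count of 8 was 2 to 4 without any 1 library: 3, 3 and 4 without 4 h replicates 1, 2 and 3, and 4, 3 and 2 without 0 h replicates 1, 2 and 3.

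Newly made RNA, in which 4sU taken up during the label is read as T-to-C changes, listed 19 members. Its values are spike-in scaled counts of such reads, a signal not divided by length, so levels are compared only within a gene. Per the labels the chromatin libraries hold total RNA and those of the soluble fractions polyA RNA. On chromatin 7 of 17 tested fell and 0 rose, against 33.6% and 5.67% of all lncRNAs, with medians of -0.51 and -0.41, and 8 had an unadjusted p under 0.05 (49.2% of all did). Summed member signal went from 1309 to 1432 without IAA to 545 to 656 with IAA. The highest member, 1700030C10Rik (ENSMUSG00000099759.1), went from a signal of 417, 457 and 601 to 136, 98.5 and 162 (log2 change -1.84, SE 0.21, adjusted p 1.84e-05, limma). 1700020I14Rik (Cyrano) went from 485, 422 and 417 to 200, 186 and 244 (log2 change -1.05, SE 0.17, adjusted p 0.000242). In both, every library with IAA lay below every one without.

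These 2 kept their falls when centred (-1.28 and -0.48), the other 5 did not, and 1 member rose. 4933407K13Rik went from 56.6, 59.2 and 61.7 to 16.4, 3.79 and 32.8 (log2 change -1.56, SE 0.39, adjusted p 0.00555, limma) and 4933404O12Rik from 35.2, 20.2 and 13.2 to 4.32, 7.58 and 0.78 (log2 change -1.31, SE 0.35, adjusted p 0.00915). Their groups did not overlap. 3 members were lower on chromatin after U1 AMO and in total, polyA and new RNA after SNRNP70 loss: 1700030C10Rik (ENSMUSG00000099759.1), 4933404O12Rik and 4933407K13Rik. They are 3 of 16 members tested in all 4, 18.8%, against 20.7% of all lncRNAs. The count of 7 dropped to 4, 3 and 3 without the library without IAA of replicate 1, 2 or 3. edgeR on reads recovered from the signal called 3.

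On chromatin of degron cells Cyrano passed the test in polyA and new RNA and not in total RNA. In total RNA on chromatin 1700020I14Rik stood at 11.7, 8.62 and 10.2 FPKM at 0 h and 8.2, 9.79 and 6.29 at 4 h (log2 change -0.34, SE 0.2, adjusted p 0.194, limma), with overlap. In polyA RNA it went from 21.7, 20.8 and 21.3 to 14, 14.5 and 12.5 FPKM (log2 change -0.64, SE 0.078, adjusted p 0.000478), with none. After U1 AMO it stood at 5.58, 6.59 and 6.47 FPKM on chromatin (log2 change -0.29, SE 0.15, adjusted p 0.125), overlapping with control, and centred it was past the test upward, at 0.55. The difference between total, polyA and new RNA was not tested.

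In total RNA 4930405N21Rik was the 1 member that rose in cytoplasm, nucleoplasm and whole cells after SNRNP70 loss. It fell on chromatin, from 5.12, 4.42 and 3.62 FPKM to 2.42, 2.98 and 2.43 (log2 change -0.72, SE 0.2, adjusted p 0.0143, limma), a call lost without 0 h replicate 1 and, at 0.02, when centred. In cytoplasm it rose from 2.22, 2.47 and 1.59 to 6.23, 8.52 and 5.39 FPKM (log2 change 1.63, SE 0.26, adjusted p 0.0154), and in nucleoplasm from 1.99, 1.6 and 1.91 to 6.11, 5.08 and 3.4 (log2 change 1.33, SE 0.24, adjusted p 0.011). The groups did not overlap in any fraction, and on the spike-in scale the chromatin change lay opposite to the soluble ones. The cytoplasm call was lost without replicate 1 or 2 of either group and the nucleoplasm call without 0 h replicate 2. In whole cells it went from 2, 1.89 and 2.62 to 3.7, 4.47 and 4.56 FPKM (log2 change 0.94, SE 0.19, adjusted p 0.0203), a call lost without 0 h replicate 1 or 2 or 4 h replicate 2 or 3.

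PolyA and new RNA outside chromatin also rose for 4930405N21Rik. Whole-cell polyA RNA went from 1.67, 1.76 and 1.56 to 5.8, 5.74 and 6.25 FPKM (log2 change 1.77, SE 0.14, adjusted p 7.18e-05, limma). New RNA went from a signal of 59.9, 226 and 21.3 to 530, 399 and 529 in cytoplasm (log2 change 2.66, SE 0.49, adjusted p 4.13e-06) and from 52.4, 101 and 76.1 to 233, 194 and 329 in nucleoplasm (log2 change 1.63, SE 0.33, adjusted p 1.38e-05). All 3 of these passed without each library in turn, and every treated library was above the controls. On chromatin its polyA RNA stood at 1.78, 2.73 and 2.35 and then 2.37, 2.37 and 3.01 FPKM (log2 change 0.18, adjusted p 0.467) and its new RNA at 19.9, 17.4 and 27.9 and then 29.4, 40.4 and 21.1 (0.35, adjusted p 0.395). Both overlapped with their controls, and centred both passed upward, at 0.66 and 0.91. After U1 AMO the chromatin level fell from 2.34, 1.29 and 1.97 to 0.64, 0.58 and 0.58 FPKM (log2 change -1.33, SE 0.29, adjusted p 0.00204), and cytoplasm went from 1.66, 1.73 and 0.88 to 0.92, 1.5 and 1.14 (log2 change -0.20, SE 0.39, adjusted p 0.809).

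**Figure D5:**
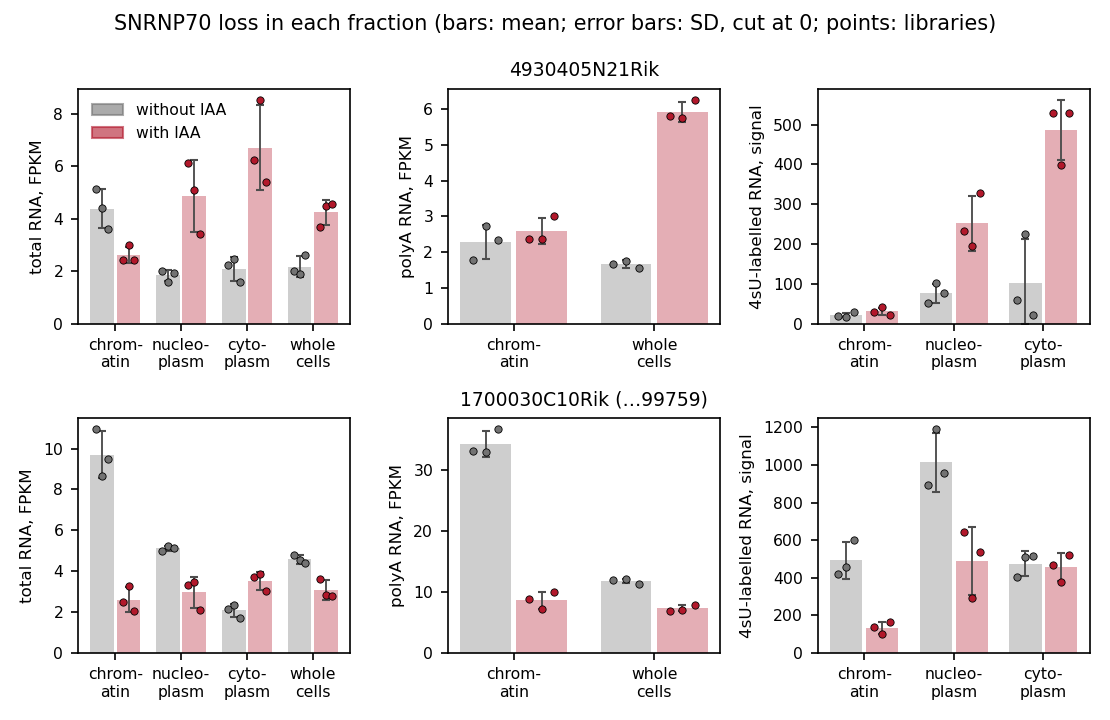
Values of 4930405N21Rik (top) and of 1700030C10Rik, ENSMUSG00000099759.1 (bottom), in each library of the degron line without IAA (grey) and with IAA (red), for total RNA and polyA RNA in FPKM and new RNA as signal, with the mean as a bar and the SD as its error bar. With IAA, on the spike-in scale, total RNA of 4930405N21Rik lies lower on chromatin and higher in cytoplasm, nucleoplasm and whole cells, and 1700030C10Rik lies lower on chromatin in all 3 kinds of RNA.

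A shift between fractions was taken as the chromatin log2 change less the average change of the 2 soluble fractions, and was tested for each member. After U1 AMO 9 of 68 members shifted away from chromatin and 1 towards it, against 19.7% and 0.0783% of all lncRNAs, and after SNRNP70 loss 15 of 67 shifted away and 0 towards, against 19.2% and 0.313%. Centred, 0 shifted away and 2 towards after U1 AMO, and 3 and 1 after SNRNP70 loss. Members past the test in both were 1700017J07Rik, 1700108F19Rik, 1700086O06Rik, 1700008J07Rik, 4930563E22Rik, 1700028E10Rik and 4933404O12Rik. How many of all lncRNAs passed in both was not counted.

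1700086O06Rik kept its U1 AMO shift without each library in turn (log2 difference -1.54, adjusted p 0.00403, limma). Beside the fall on chromatin given above, its cytoplasm stood at 1.43, 1.8 and 1.72 FPKM with control and 1.9, 1.96 and 1.95 with U1 AMO, higher in every library without passing the test (adjusted p 0.751). Its nucleoplasm, at 0.59, 0.26 and 0.25 and 0.13, 0.27 and 0.09, overlapped. 1700042O10Rik was the 1 lncRNA of the table that shifted towards chromatin (log2 difference 1.44, adjusted p 0.0465). Its chromatin stood at 0.5, 0.17 and 0.17 FPKM with control and 0.53, 0.2 and 0.31 with U1 AMO, and its cytoplasm at 12.7, 6 and 9.57 and 3.63, 4.16 and 3.62, so that chromatin overlapped and cytoplasm was lower in every library. Neither cytoplasm nor nucleoplasm passed alone (adjusted p 0.0678 and 0.0718), and the shift passed in 6 of 18 fits that left out a library. In the degron line 4930405N21Rik had a shift of -2.20 (adjusted p 0.000191), past the test without each library in turn.

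Single libraries moved the counts of shifts. After U1 AMO the 10 became 2 without the chromatin control replicate 3, 3 without U1 AMO chromatin replicate 1, 4 without chromatin control replicate 1, U1 AMO nucleoplasm replicate 1 or nucleoplasm control replicate 3, and 6 without U1 AMO chromatin replicate 3 or cytoplasm control replicate 1. After SNRNP70 loss the 15 became 6 without chromatin replicate 3 of either time, 7 without 0 h chromatin replicate 1, and 9 without 4 h cytoplasm replicate 2 or 0 h nucleoplasm replicate 2.

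Among the remaining soluble comparisons of the degron line, total RNA gave 1 rise and 0 falls of 59 in cytoplasm (2.66% and 1.01% of all lncRNAs), 1 rise and 9 falls of 64 in nucleoplasm (5.21% and 10.8%), and 1 rise and 1 fall of 64 in whole cells (5.31% and 6.5%). Centred, nucleoplasm gave 3 rises and 6 falls and whole cells 2 and 1. The deepest nucleoplasm fall was 4921531C22Rik, which starts 207 bases from Taf4, the gene of a TFIID subunit, at 0.64, 0.56 and 0.64 FPKM and then 0.21, 0.19 and 0.03 (log2 change -1.65, SE 0.38, adjusted p 0.0236, limma). It lay lower in every library, and lost its call without any 1 of the 0 h libraries. The count of 10 dropped to 6, 4 and 5 without 4 h replicates 1, 2 and 3 and to 2, 0 and 4 without 0 h replicates 1, 2 and 3. The 1 in cytoplasm, 4930405N21Rik, became 2 without 4 h replicate 3, and the 2 in whole cells became 0 without 4 h replicate 2 and 1 without 4 h replicate 3 or any 1 of the 0 h libraries. The whole-cell fall was that of 1700042O10Rik (-1.15), lost without 0 h replicate 2 or 3 or 4 h replicate 1 or 2.

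New RNA gave 1 rise and 1 fall of 18 in cytoplasm (6.62% and 4.02%) and 2 rises and 3 falls of 19 in nucleoplasm (17.8% and 9.59%). Centred, these were 2 rises and 1 fall and 2 rises and 5 falls. 4933404O12Rik fell in both, from 234, 475 and 452 to 75.8, 136 and 121 in cytoplasm (log2 change -1.70, SE 0.48, adjusted p 0.00742, limma) and from 123, 76.5 and 123 to 22.4, 11.5 and 50.9 in nucleoplasm (log2 change -1.79, SE 0.44, adjusted p 0.0005). The cytoplasm call was lost without IAA replicate 1, which left 1 of the 2. In nucleoplasm 1700086P04Rik, which starts 9 bases from the ubiquitin ligase gene Rnf19b, and 1700030C10Rik (ENSMUSG00000099759.1) fell as well, by 1.70 and 1.10 on the log2 scale. 1700086P04Rik lost its call without IAA replicate 1, and the rise of 4930566F21Rik (0.84) its own without IAA replicate 1 or 3 or the replicate 1 without IAA. Without IAA replicate 1, or without the replicate 1 that had no IAA, the count of 5 was 3.

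Of the 68 members, 51 passed the test in at least 1 of 21 comparisons of treated with control libraries, 46 of them on chromatin and 5 in another fraction or whole cells alone. Of all 1279 lncRNAs 85.4% passed in at least 1 and 79.1% on chromatin, against 75.0% and 67.6% of the members, and all shares count entries that some tables do not list. 17 passed in none, among them the most abundant member, 4933411E06Rik, with 24.7, 29.5 and 11.1 FPKM on chromatin with control AMO and 11.9, 20.5 and 7.14 with U1 AMO (log2 change -0.73, SE 0.59, adjusted p 0.301, limma). Its libraries spread widely in both groups. The others were 1700007L15Rik, 1700023H06Rik, 1700028I16Rik, 1700030N03Rik, 1700052K11Rik, 1700063H04Rik, 1700096K18Rik, 1700123M08Rik, 4930511M06Rik, 4930544I03Rik, 4930579K19Rik, 4930589O11Rik, 4930591A17Rik, 4930594C11Rik, 4933431K14Rik and 4933439K11Rik. A p that misses the threshold does not show that these did not change.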

How the data were processed

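The RNA-seq samples of mouse ESCs, 102 of 112 in all, form 34 groups by treatment and fraction. The members and lists were chosen with earlier results of these data known. Total and polyA RNA were deposited as FPKM. The headers name scaling to spike-in RNA for the 3 fractions and none for whole cells. The SLAM-seq signal was deposited as counts of reads with T-to-C changes divided by a spike-in factor, per the file headers. The submitters' processing notes list, for RNA, the tools CASAVA, TopHat and Cufflinks and the build mm10. No source used here gives their versions, the annotation or any filter. 1 column of values was not used, because its name gives no fraction. Entries with a shared identifier (3, 3 and 2 in the AMO, degron and polyA tables) were left out. SLAM-seq reads, recovered from the steps in the signal, numbered 24927 to 227237 per library, of which 432 to 1879 were of members.

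Tests used the log2(value + pseudocount) scale, with a pseudocount of 0.2 (AMO), 0.1 (degron total and polyA RNA) or 8 (SLAM-seq), the 10th percentile of values above 0, which understates changes of low genes. A lncRNA was tested where 3 libraries of a fit reached that amount. Each fraction of a table was fitted over all of its lncRNAs with limma 3.58.1 (R 4.3.3, eBayes with trend), with Benjamini-Hochberg adjustment and a threshold of 0.05. "Rose" and "fell" mean past it. Scripts were tested on simulated data. Alternatives were an amount 5 times larger, no filter, libraries centred on their medians, the replicate number as a block, each library left out, and edgeR 4.0.16 on recovered SLAM-seq counts. Same-numbered libraries deviated together (every correlation over 0.1) in the chromatin and nucleoplasm comparisons of each AMO with control and in cytoplasm after U1 AMO. Libraries of unlike number reached up to 0.169 in nucleoplasm. Numbers may therefore pair libraries there, while the main fits were unpaired. Members were named by rule: the 10 highest on chromatin with control AMO; in each comparison the largest changes past the threshold without overlap of libraries (up to 5 each way for chromatin, shifts and control fractions, up to 3 elsewhere); up to 10 changed the same way on chromatin by U1 AMO and SNRNP70 loss; members lower on chromatin and higher in a soluble fraction after U1 AMO; the 5 highest in new RNA on chromatin; and 4933407K13Rik, 1700020I14Rik and 1700056N10Rik. The text gives part of them, and beside counts of 5 or fewer also others, chosen after their values were seen.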

Additional observations from a re-analysis of the deposited data

Results flagged for a closer look

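The values here were picked out because a member's change on chromatin differed, by the test of the difference itself (limma, adjusted p under 0.05), from its changes in cytoplasm and nucleoplasm. After U1 AMO the log2 differences were -2.23 for 1700017J07Rik, -1.59 for 1700108F19Rik, -1.54 for 1700086O06Rik, -1.34 for 1700008J07Rik, -1.33 for 4930563E22Rik, -1.21 for 1700028E10Rik, -1.16 for 1700097N02Rik, -0.85 for 4933404O12Rik and for 4930533N22Rik, and 1.44 for 1700042O10Rik. In total RNA after SNRNP70 loss they were -3.61 for 1700017J07Rik, -2.20 for 4930405N21Rik, -2.19 for 1700108F19Rik, -2.08 for 1700028E10Rik, -1.93 for 4930539J05Rik, -1.74 for 4930581F22Rik, -1.54 for 1700008J07Rik, -1.17 for 4933404O12Rik and -1.12 for 1700086O06Rik. The smaller ones were -0.99 for 4930563E22Rik, -0.96 for 1700001L05Rik, -0.88 for 4930509G22Rik and -0.78 for 4930558J18Rik, and the entries of 1700030C10Rik had -1.85 (ENSMUSG00000099759.1) and -1.49 (ENSMUSG00000091071.2). Without each library in turn, 1700086O06Rik kept its shift after U1 AMO, and 4930405N21Rik, 1700028E10Rik, 4930509G22Rik and both entries of 1700030C10Rik kept theirs after SNRNP70 loss, while each of the others lost its call at least once. After SNRNP70 loss the SE was 1.0 for 1700017J07Rik and 0.64 for 1700108F19Rik, against 0.29 for 4930405N21Rik. In cytoplasm at 0 h 1700017J07Rik stood at 1.54, 0.38 and 0 FPKM and 1700108F19Rik at 0.04, 0.1 and 0.45. With libraries near the 0.1 FPKM added, the sizes of these 2 shifts depend on that amount.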

How the results depend on the processing

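Counts are of members past the test. With libraries centred on their medians they were 12 on chromatin and 6 in nucleoplasm after U1 AMO (27 and 2 as reported), 2 in nucleoplasm after U2 AMO (6), 10 on chromatin and 5 in whole cells after U1+U2 AMO (29 and 3), 10 in polyA RNA (21) and 3 in new RNA on chromatin (7), and 2 and 4 for the shifts after U1 AMO and SNRNP70 loss (10 and 15). Centring takes out a median shift of all lncRNAs by construction. The share of all lncRNAs past the test when centred was not counted, so the centred counts of members have no background beside them. It also turned 12 falls on chromatin to values just above 0, none past the test: 1700008H02Rik (0.064), 4933404O12Rik (0.056) and 4933427J07Rik (0.167) after U1 AMO, 1700008H02Rik (0.092), 1700034P13Rik (0.024), 4930509G22Rik (0.094) and 4933427J07Rik (0.124) after U1+U2 AMO, 4933427J07Rik (0.024) for U1 against U2 AMO, 4930405N21Rik (0.023) and 4930509G22Rik (0.095) in total RNA, and 1700001L05Rik (0.039) and 4930533N22Rik (0.084) in polyA RNA after SNRNP70 loss. No called member changed sign under another alternative. With the replicate block they were 4, 4 and 7 in cytoplasm, nucleoplasm and whole cells after U1 AMO, 5 and 0 on chromatin and in whole cells after U2 AMO, 5 and 5 in cytoplasm and whole cells after U1+U2 AMO, and 1 and 4 in whole-cell total and polyA RNA after SNRNP70 loss; no other count moved by over 1.5 times under the block. Outside the comparisons where numbers may pair libraries, samples share only a number. The larger added amount gave 4 on chromatin after U2 AMO, and edgeR gave 3 on chromatin in new RNA; for both, and for the block, the cause was not tested.

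Without any 1 library the counts ranged, after U1 AMO, from 19 to 28 on chromatin, 0 to 2 in cytoplasm, 1 to 5 in nucleoplasm and 2 to 5 in whole cells. After U2 AMO they ranged from 1 to 4, 0 to 2, 1 to 8 and 0 to 1, and after U1+U2 AMO from 22 to 32, 1 to 4, 2 to 6 and 1 to 3. U1 against U2 AMO gave 9 to 14. After SNRNP70 loss total RNA gave 24 to 32 on chromatin, 0 to 2 in cytoplasm, 0 to 6 in nucleoplasm and 0 to 2 in whole cells, polyA RNA 16 to 24 on chromatin and 2 to 4 in whole cells, and new RNA 3 to 8, 1 to 3 and 3 to 5 on chromatin, in cytoplasm and in nucleoplasm. The shifts gave 2 to 13 after U1 AMO and 6 to 15 after SNRNP70 loss, and the chromatin excess 29 to 38 in control AMO and 39 to 44 in degron cells. Most members are low, and read depth behind FPKM is unknown, so precision rests on the spread of 3 libraries.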
